A study of Homo sapiens with 12 samples.

Results

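Transcripts of the nuclear lamina were followed through arrests driven by p16 and p21 in 10 genes, which were chosen by name: the lamins LMNA, LMNB1 and LMNB2, the inner nuclear membrane proteins LBR, TMPO, EMD and LEMD3, the chromatin-binding partner BANF1, and the membrane-spanning SUN1 and SUN2. All 10 were found in the first column of the count files, among 57133 gene names of which 30296 had a count in any library. All 10 also had enough counts to be tested, as did 14504 genes in all. The cells were MCF10-A, a human cell line from breast epithelium that does not form tumours, and each derivative carried a transgene under a doxycycline-inducible promoter. The transgene encoded mVenus-p16, mVenus-p21 or mVenus alone, where mVenus is a yellow fluorescent protein, and p16 and p21 each block kinases that drive the cell cycle. Doxycycline was given to every group, at 50 ng/ml, and cells were collected after 5 days. The groups are p16 with Torin2 (mVenus-p16 cells given Torin2 at 100 nM, which blocks the growth kinase mTOR), p21 (mVenus-p21 cells), p16 (mVenus-p16 cells given the solvent DMSO) and mVenus (cells with mVenus alone). The drug step came 24 hours after doxycycline, and 48 hours lay between changes of medium. Each group held 3 biological replicates by the series description, and each is named here by its label. The arrests named below are the p16 and p21 groups, and arrest itself is not measured by these counts. Torin2 was given to mVenus-p16 cells only, so a Torin2 effect in cells with mVenus alone or mVenus-p21 was not measured, and whether each line is a clone is not given in the sources used here.

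The nuclear lamina is a meshwork of lamin filaments beneath the inner nuclear membrane that carries the shape and stiffness of the nucleus and holds heterochromatin at its edge. LMNA gives lamin A and lamin C by splicing, while LMNB1 and LMNB2 encode B-type lamins that stay anchored in the membrane by a farnesyl group. LBR, some products of TMPO, and the products of EMD and LEMD3 tether chromatin and lamins to the membrane. The counts here are per gene, so they pool all products of TMPO. SUN1 and SUN2 reach across the space between the nuclear membranes to the cytoskeleton, and a low level of lamin B1 is widely used as a marker of senescent cells.

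The 12 libraries held 13168749 to 18321114 counts, and the common biological coefficient of variation over genes was 3.94%. CDKN2A, the gene of p16, was at 0 counts in all 12 libraries, those labelled p16 included, so its counts do not check the p16 label. Levels are given as CPM, which are counts scaled to a common library size by the TMM-scaled total of the tested genes. CDKN1A, the gene of p21, averaged 259 ± 17.0 CPM in p16 with Torin2, 889 ± 16.5 CPM in p21, 570.3 ± 30.1 CPM in p16 and 712 ± 13 CPM in mVenus (SD, n = 3 each). Of 8 markers of basal mammary epithelium and 5 of epithelium, all had at least 1 CPM in every group, and their summed levels were highest in p16 (14925 to 15791 CPM and 4709 to 4975 CPM over its libraries, against 8491 to 8837 CPM and 2193 to 2308 CPM in mVenus). The 6 leukocyte markers summed to 12.9 to 38.6 CPM over all libraries, with CD3E and TYROBP at 0 in every group, and the 5 endothelial markers summed to 1.78 to 4.87 CPM. The 6 fibroblast markers summed to 111 to 117 CPM in p21 and to 4.62 to 20.3 CPM in the other groups, with DCN and COL1A1 the 2 of the 6 at 1 CPM or more in each group. The p21 sum was nearly all DCN, at 109 CPM on average in p21 and 10.7 CPM in mVenus, while COL1A1 averaged 3.86 CPM in p21 and 9.15 CPM in mVenus, and COL1A2, COL3A1, PDGFRA and LUM were at or near 0 in every group. The part of these marker levels in the results on the lamina was not tested.

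Nearly the whole set fell in both arrests, and most of it was higher when p16 cells had Torin2. In p21 over mVenus all 10 members fell (edgeR quasi-likelihood test, Benjamini-Hochberg adjusted p under 0.05 over all tested genes), where 28.3% of the 14504 tested genes were lower and 28.2% higher. In p16 over mVenus 9 members fell and LMNA was not called, beside 32.8% of tested genes lower and 30.9% higher. The median log2 fold change of the members was -0.68 in p21 and -0.53 in p16, and that of all tested genes was -0.0037 and -0.0036. LMNB1, LBR and TMPO were at least 2-fold lower in both arrests, as 6.49% of tested genes were in p21 and 9.35% in p16, and SUN2 passed that line in p16 only, at 2.07-fold lower. Without TMM scaling, on total counts alone, the genes called in p16 over mVenus were 3449 higher and 5893 lower in place of 4487 and 4751, and in p21 over mVenus 3307 higher and 5052 lower in place of 4085 and 4102.

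In p16 with Torin2 over p16, 7 members rose (LMNB1, LMNB2, LBR, TMPO, EMD, LEMD3 and SUN2), LMNA fell, and BANF1 and SUN1 were not called. Among all tested genes 30.3% were higher and 29% lower in that comparison. The members' median log2 fold change was 0.27, against 0.02 over all tested genes. Set against mVenus, p16 with Torin2 still had 9 members lower, with EMD not called, beside 36.1% of tested genes lower and 31.2% higher. In p21 over p16, 6 members fell (LMNA, LMNB1, LMNB2, LBR, TMPO and SUN1), SUN2 rose, and EMD, LEMD3 and BANF1 were not called, beside 27.2% of tested genes higher and 27.2% lower. In p16 with Torin2 over p21, 7 members rose and LMNA fell, with BANF1 and SUN2 not called, beside 33.2% of tested genes higher and 33.3% lower. These comparisons share libraries, so they are not independent of each other.

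**Figure D1:**
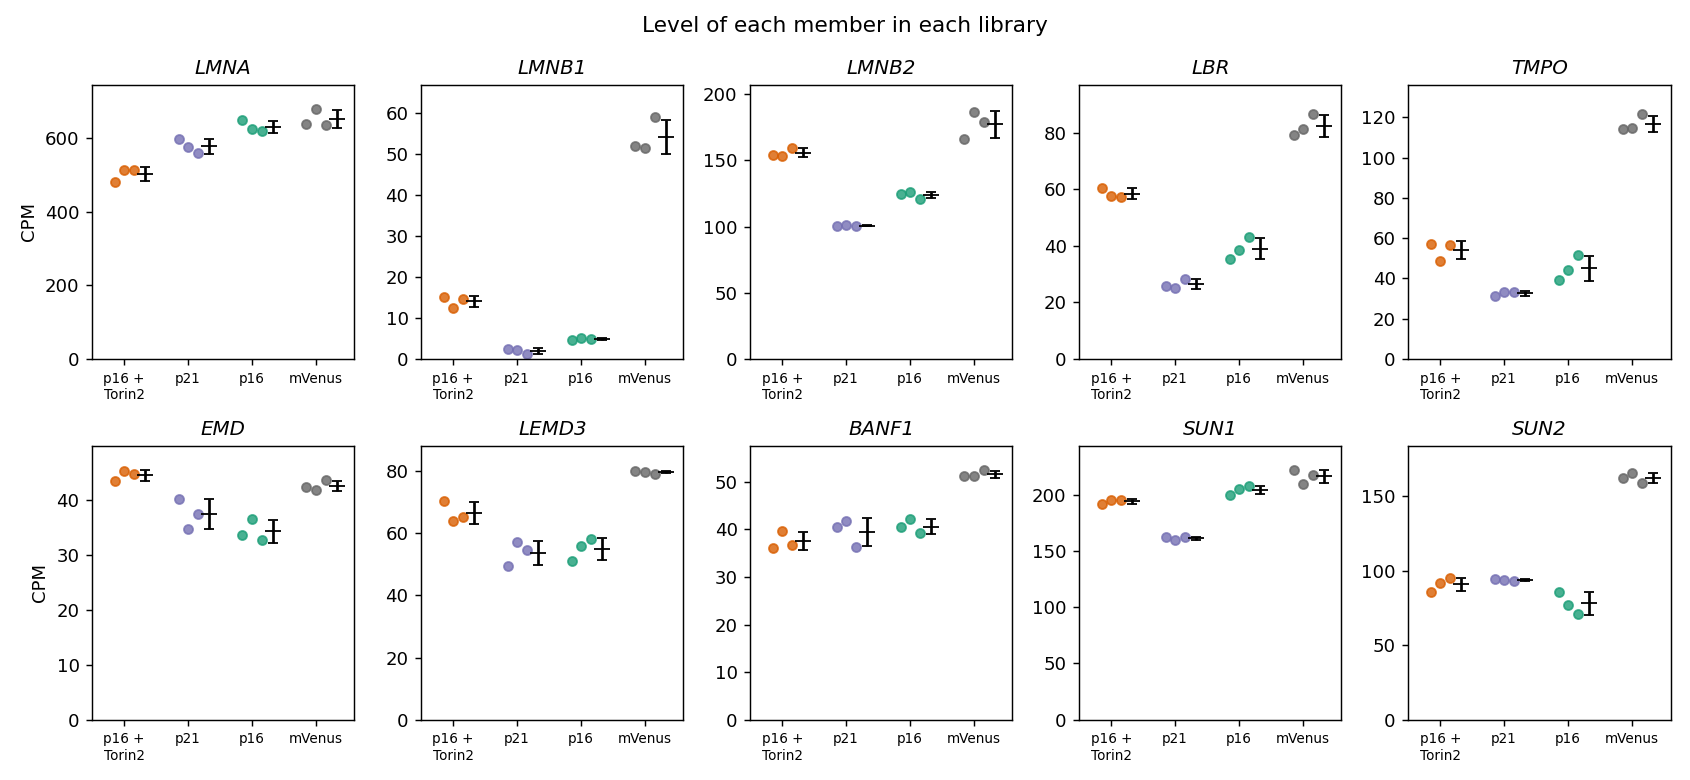
Level in CPM (vertical axes, from 0) of each of the 10 members in each of the 12 libraries, with p16 with Torin2, p21, p16 and mVenus from left to right. Each point is 1 library, and the black mark and bars beside them are the mean and SD (n = 3). LMNB1 runs from 1.21 CPM in a p21 library to 59.0 CPM in an mVenus library, while LMNA keeps between 479.5 and 679 CPM.

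Promoter windows of RefSeq (build GRCh38.p14) were available for 9 of the 10 members, in 15 windows, and their 250 bases upstream of the start were searched on both strands for 3 short strings known from promoters of cell cycle genes. These were TTTGAA (the core of the cell cycle homology region, CHR), TTTNNCGC (an E2F-type string) and CCAAT, of which no pair overlapped in a member's window. Among all 35116 windows 13.3% held the first, 5.92% the second and 32% the third. Counted by gene, since some have several windows, 16.1% of 27305 genes held the first in any window, 7.15% the second and 37.0% the third. The windows shown are those of the 4 members with a CHR or E2F string, and that of the first start of LMNB1, the member that moved furthest, cut to the bases outside annotated UTRs. Capitals mark the strings, and each sequence runs 5′ to 3′ on the gene's strand.
LMNA at chr1:156082323-156082572, plus strand: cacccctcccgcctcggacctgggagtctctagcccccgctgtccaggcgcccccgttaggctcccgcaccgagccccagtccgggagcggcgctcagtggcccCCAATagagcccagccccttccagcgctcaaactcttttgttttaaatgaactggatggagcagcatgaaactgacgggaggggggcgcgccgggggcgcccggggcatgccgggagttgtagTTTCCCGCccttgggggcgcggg
LMNB2 at chr19:2456997-2457209, minus strand: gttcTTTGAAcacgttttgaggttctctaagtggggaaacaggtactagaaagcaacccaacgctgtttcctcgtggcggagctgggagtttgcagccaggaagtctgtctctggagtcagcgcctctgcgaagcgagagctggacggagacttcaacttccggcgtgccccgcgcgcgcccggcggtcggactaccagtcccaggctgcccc
LEMD3 at chr12:65169333-65169570, plus strand: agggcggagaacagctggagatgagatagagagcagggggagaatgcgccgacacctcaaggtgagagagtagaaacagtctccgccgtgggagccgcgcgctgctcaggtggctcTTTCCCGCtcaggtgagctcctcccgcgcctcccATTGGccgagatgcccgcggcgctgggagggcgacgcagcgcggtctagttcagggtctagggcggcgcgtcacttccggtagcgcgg
SUN2 at chr22:38756001-38756248, minus strand: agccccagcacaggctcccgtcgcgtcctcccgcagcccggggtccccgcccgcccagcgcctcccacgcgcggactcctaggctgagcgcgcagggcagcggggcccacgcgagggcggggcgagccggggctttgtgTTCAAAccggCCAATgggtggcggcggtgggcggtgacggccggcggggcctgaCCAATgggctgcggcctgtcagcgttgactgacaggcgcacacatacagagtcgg
LMNB1 at chr5:126776373-126776622, plus strand: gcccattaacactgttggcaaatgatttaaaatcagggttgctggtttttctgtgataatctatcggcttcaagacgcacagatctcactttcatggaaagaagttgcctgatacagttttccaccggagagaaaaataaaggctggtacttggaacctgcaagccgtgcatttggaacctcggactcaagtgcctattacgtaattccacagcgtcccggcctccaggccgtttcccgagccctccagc

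The E2F string stood 23 bases before the start in LMNA, which was the least changed member in p16, and 134 bases before it in LEMD3. The CHR string stood 246 bases before the start in LMNB2 and, on the other strand, 111 bases before it in SUN2. A CCAAT string was found in windows of LMNA, LEMD3, SUN2, EMD and TMPO, and 138 bases before the second start of LMNB1 on the other strand. None of the 3 strings was in the windows of LBR and BANF1 or of the first LMNB1 start. A match here is a description, not a site, and a missing match says only that these letters are not in this window.

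LMNB1, the gene of lamin B1, moved furthest (chromosome 5, 126776623 to 126837020 on the plus strand, GENCODE 29 on GRCh38, like the gene coordinates that follow). It stood at 15.0, 12.5 and 14.6 CPM in the 3 libraries of p16 with Torin2, at 2.57, 2.17 and 1.21 CPM in p21, at 4.62, 5.07 and 4.81 CPM in p16, and at 52.0, 51.5 and 59.0 CPM in mVenus. No 2 groups overlapped, and each step of the order mVenus, p16 with Torin2, p16, p21 passed the test. Relative to mVenus it was 27.6-fold lower in p21 (log2 fold change -4.79 ± 0.13, SE, adjusted p = 1.89e-17) and 11.2-fold lower in p16. Relative to p16 it was 2.46-fold lower in p21 (-1.30 ± 0.20, adjusted p = 1.29e-05) and 2.91-fold higher with Torin2 (1.54 ± 0.13, adjusted p = 2.78e-09). With Torin2 it was still 3.86-fold below mVenus (-1.95 ± 0.09, adjusted p = 6.89e-14). The p21 levels rest on 35, 35 and 19 counts per library, so their precision is the lowest among the members. In these bulk libraries fewer cells that express LMNB1 and less LMNB1 RNA per cell cannot be told apart.

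LMNB2, the gene of lamin B2, followed the same order of groups over a narrower span (chromosome 19, 2427638 to 2456996, minus strand). Its libraries held 154, 154 and 159.6 CPM in p16 with Torin2, 100.2, 101 and 100.5 CPM in p21, 125, 126 and 121 CPM in p16, and 166, 186 and 179 CPM in mVenus. The groups did not overlap, and each step passed the test. LMNB2 was 1.76-fold lower in p21 than in mVenus (-0.81 ± 0.04, adjusted p = 1.1e-12) and 1.43-fold lower in p16 (-0.51 ± 0.04, adjusted p = 9.7e-10). It was 1.26-fold higher with Torin2 than in p16 (0.33 ± 0.04, adjusted p = 9.38e-07). Of its exonic bases 5.58% are shared with other genes, mostly TIMM13, which encodes a mitochondrial import chaperone.

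LMNA, the gene of the A-type lamins, changed little in the arrests and went the other way with Torin2 (chromosome 1, 156082573 to 156140089, plus strand). It was at 479.5, 515 and 513 CPM in p16 with Torin2, at 599, 575 and 559 CPM in p21, at 649.7, 624 and 618 CPM in p16, and at 638, 679 and 635 CPM in mVenus. The p16 and mVenus libraries overlapped (-0.046 ± 0.038, adjusted p = 0.314, 95% interval -0.13 to 0.04), and on total counts alone that difference was -0.15 with adjusted p = 0.00155, where the median of all genes was -0.11. In p21 it was 1.13-fold lower than in mVenus (-0.17 ± 0.04, adjusted p = 0.000697) and 1.09-fold lower than in p16 (-0.13 ± 0.04, adjusted p = 0.0086). The second of these was not called without p21 replicate 3 (adjusted p = 0.0557) or on total counts (adjusted p = 0.0558). With Torin2 it was lower than in p16 by 1.26-fold (-0.33 ± 0.04, adjusted p = 3.48e-07) and lower than in mVenus by 1.30-fold (-0.37 ± 0.04, adjusted p = 3.75e-08), and p16 with Torin2 was its lowest group.

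Per length, LMNA gave most of the lamin transcripts in every group and the B-type share contracted in both arrests. Taken as a share of the summed RPKM (CPM per kilobase of exon) of the 3 lamins, LMNB1 made up 3.71% ± 0.41 in p16 with Torin2, 0.533% ± 0.175 in p21, 1.16% ± 0.07 in p16 and 10.6% ± 0.94 in mVenus (SD, n = 3 each). LMNB2 made up 27.5% ± 0.63, 18.2% ± 0.58, 19.9% ± 0.37 and 23.2% ± 0.61 in the same groups and order. LMNA made up 68.8% ± 1.04, 81.2% ± 0.43, 78.9% ± 0.44 and 66.2% ± 1.17, again in that order. LMNA RPKM was 121 to 240.2 times that of LMNB1 in the p21 libraries, 64.0 to 73.2 times in p16, 16.6 to 21.4 times with Torin2 and 5.60 to 6.86 times in mVenus. The summed level was 104 ± 2.90 RPKM in p16 with Torin2, 102 ± 3.0 in p21, 114 ± 2.63 in p16 and 141 ± 4.72 in mVenus. The LMNA share ran from 67.8% to 69.9% in p16 with Torin2 and from 64.9% to 67.0% in mVenus, which did not overlap. These shares carry no test of their own.

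**Figure D2:**
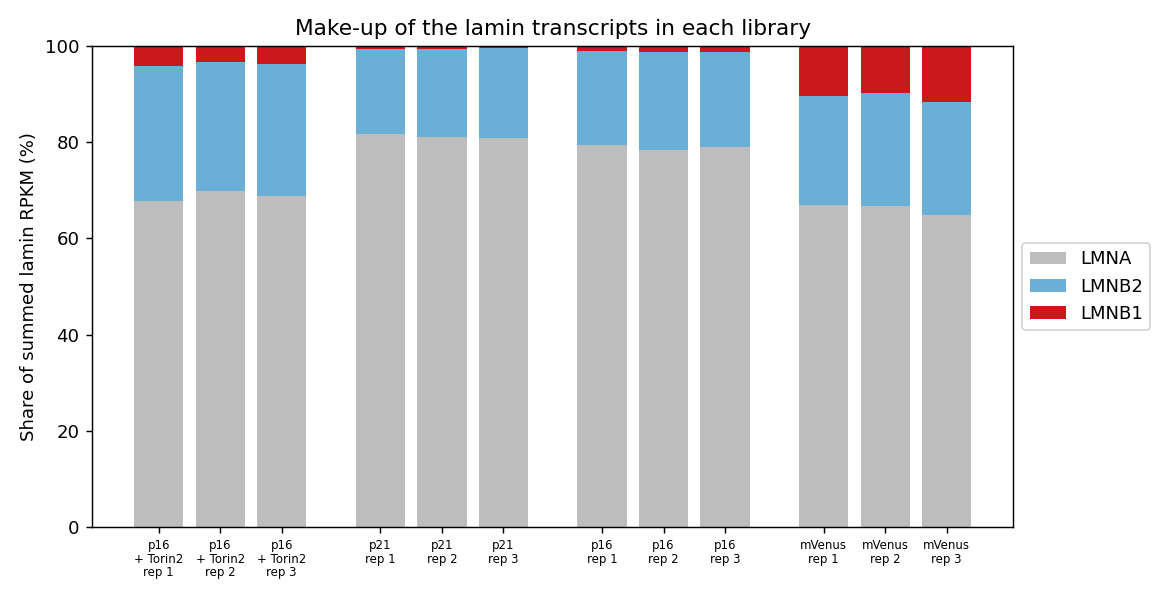
Share (%) of the summed lamin RPKM that each lamin gene made up in each library, with LMNA at the bottom of each bar, LMNB2 above it and LMNB1 on top. Libraries run from p16 with Torin2 on the left through p21 and p16 to mVenus on the right, with replicates as labelled. The LMNB1 part is at most 1.23% in the p21 and p16 libraries and 9.72% to 11.6% in mVenus.

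Among the inner nuclear membrane proteins that hold chromatin, LBR and TMPO fell furthest. LBR encodes the lamin B receptor, which binds heterochromatin and has a sterol reductase domain (chromosome 1, 225401502 to 225428925, minus strand). It was at 60.6, 57.8 and 57.2 CPM in p16 with Torin2, at 25.8, 25.0 and 28.4 CPM in p21, at 35.4, 38.7 and 43.1 CPM in p16, and at 79.2, 81.5 and 86.6 CPM in mVenus. The 4 groups did not overlap, and each step of the order passed the test. Against mVenus it was 3.13-fold lower in p21 (-1.64 ± 0.07, adjusted p = 1.45e-14) and 2.11-fold lower in p16 (-1.08 ± 0.06, adjusted p = 4.05e-12). It was 1.5-fold higher with Torin2 than in p16 (0.58 ± 0.06, adjusted p = 1.38e-07), which left it 1.41-fold below mVenus.

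TMPO encodes the LAP2 family, lamina-associated polypeptides that bind lamins and BANF1 (chromosome 12, 98515512 to 98550379, plus strand). Its levels were 57.0, 48.7 and 56.7 CPM in p16 with Torin2, 31.3, 33.1 and 33.4 CPM in p21, 39.3, 44.3 and 51.5 CPM in p16, and 114, 115 and 121 CPM in mVenus. All libraries of the other groups lay under every mVenus library, and p16 with and without Torin2 overlapped. TMPO was 3.57-fold lower in p21 than in mVenus (-1.84 ± 0.07, adjusted p = 1.87e-14) and 2.60-fold lower in p16 (-1.38 ± 0.07, adjusted p = 7.51e-13). Relative to p16 it was 1.38-fold lower in p21 (-0.46 ± 0.08, adjusted p = 7.82e-05) and 1.2-fold higher with Torin2 (0.27 ± 0.08, adjusted p = 0.00518). With Torin2 it was 2.16-fold below mVenus, the widest such gap among the members after LMNB1. TMPO-AS1, on the opposite strand, shares 8.30% of its exonic bases and had at most 56 counts in a library. Those counts may leave out reads on the shared bases. The pseudogenes TMPOP1 and TMPOP2 had at most 15 counts in a library.

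EMD, the gene of emerin, a LEM-domain protein that binds BANF1 and lamin A, kept within a narrow range (X chromosome, 154379197 to 154381523, plus strand). It was at 43.4, 45.4 and 44.8 CPM in p16 with Torin2, at 40.1, 34.8 and 37.4 CPM in p21, at 33.7, 36.6 and 32.6 CPM in p16, and at 42.4, 41.8 and 43.6 CPM in mVenus. EMD was the only member at its highest mean with Torin2, though that mean did not differ from mVenus beyond the spread (0.06 ± 0.06, adjusted p = 0.335). It fell 1.24-fold in p16 relative to mVenus (-0.31 ± 0.06, adjusted p = 9.42e-05) and was 1.30-fold higher with Torin2 than in p16 (0.38 ± 0.06, adjusted p = 1.41e-05). The fall in p21 relative to mVenus (-0.19 ± 0.06, adjusted p = 0.00833) was not called without p21 replicate 2 (adjusted p = 0.0791), without the low-count filter (0.065) or by the DESeq2 Wald test (0.0505). In p21 over p16 it was not called (0.12 ± 0.06, adjusted p = 0.0939), but it was called, as higher, without p21 replicate 2 (adjusted p = 0.0314), without p16 replicate 2 (0.037) and on total counts (0.0333).

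LEMD3, the gene of MAN1, a LEM-domain protein that also binds SMAD proteins, fell in both arrests (chromosome 12, 65169571 to 65248327, plus strand). It stood at 70.3, 64.1 and 65.0 CPM in p16 with Torin2, at 49.5, 57.1 and 54.5 CPM in p21, at 51.1, 55.8 and 58.0 CPM in p16, and at 80.0, 79.8 and 79.2 CPM in mVenus. The p21 and p16 libraries overlapped (-0.029 ± 0.059, 95% interval -0.17 to 0.11, adjusted p = 0.702). LEMD3 was 1.48-fold lower in p21 than in mVenus (-0.57 ± 0.06, adjusted p = 3.32e-08) and 1.45-fold lower in p16 (-0.54 ± 0.06, adjusted p = 4.87e-08). It was 1.21-fold higher with Torin2 than in p16 (0.28 ± 0.06, adjusted p = 0.000336), with no overlap of libraries.

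BANF1, the gene of barrier-to-autointegration factor, which bridges DNA and LEM-domain proteins, was lower in all 3 other groups than in mVenus (chromosome 11, 66002079 to 66004149, plus strand). It was at 36.1, 39.6 and 36.7 CPM in p16 with Torin2, at 40.5, 41.8 and 36.2 CPM in p21, at 40.4, 42.2 and 39.1 CPM in p16, and at 51.1, 51.1 and 52.4 CPM in mVenus. Those 3 groups overlapped each other and lay under every mVenus library. The fall from mVenus was 1.38-fold in p16 with Torin2 (-0.46 ± 0.06, adjusted p = 4.92e-07), 1.31-fold in p21 (-0.39 ± 0.06, adjusted p = 7.44e-06) and 1.27-fold in p16 (-0.35 ± 0.06, adjusted p = 2.01e-05). Torin2 over p16 gave -0.12 ± 0.06 (95% interval -0.25 to 0.02, adjusted p = 0.102). EIF1AD, on the opposite strand, shares 5.96% of its exonic bases, and the BANF1 pseudogenes had at most 10 counts in a library.

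SUN1 and SUN2 are the inner-membrane parts of the LINC complex, which joins the lamina to the cytoskeleton, and both fell in p21 while SUN2 fell further in p16. SUN2 was at 86.1, 91.7 and 94.9 CPM in p16 with Torin2, at 94.7, 94.0 and 93.3 CPM in p21, at 86.1, 77.1 and 71.2 CPM in p16, and at 162, 166 and 159 CPM in mVenus (chromosome 22, 38734725 to 38794143, minus strand). Every mVenus library lay above every library of the other groups. It was 1.72-fold lower in p21 than in mVenus (-0.79 ± 0.05, adjusted p = 6.32e-11) and 2.07-fold lower in p16 (-1.05 ± 0.05, adjusted p = 5.17e-13). SUN2 was the single member called higher in p21 over p16 in the fit of all 12 libraries (0.27 ± 0.06, adjusted p = 4e-04), and it was 1.16-fold higher with Torin2 than in p16 (0.22 ± 0.06, adjusted p = 0.00211). Of its exonic bases 24.6% are shared with other genes, chiefly GTPBP1 on the opposite strand. GTPBP1, which encodes a GTP-binding protein, averaged 55.6 CPM in p16 with Torin2, 103 in p21, 92.3 in p16 and 65.0 in mVenus. Whether reads on the shared bases entered the SUN2 counts, the GTPBP1 counts or neither was not tested.

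SUN1 was at 192, 196 and 195 CPM in p16 with Torin2, at 162, 159.9 and 162 CPM in p21, at 200.1, 205 and 208 CPM in p16, and at 222, 209.7 and 218 CPM in mVenus (chromosome 7, 816615 to 896435, plus strand). The p21 libraries lay under all others, 1.34-fold below mVenus (-0.42 ± 0.03, adjusted p = 1.69e-09) and 1.27-fold below p16 (-0.34 ± 0.03, adjusted p = 6.05e-08). The fall in p16 relative to mVenus was small (-0.084 ± 0.034, adjusted p = 0.038). It was not called with DESeq2 size factors (adjusted p = 0.0978), without the low-count filter (0.605), by the DESeq2 Wald test (0.159), among the 6 libraries alone (0.102) or with a replicate block (0.0569). Nor was it called without mVenus replicate 1 (adjusted p = 0.163), mVenus replicate 3 (0.0977), p16 replicate 1 (0.121) or p16 replicate 2 (0.0751). Torin2 over p16 was not called (-0.073 ± 0.034, adjusted p = 0.0767), except without p16 replicate 1 (adjusted p = 0.0493). Per length, SUN1 made up 54.0% ± 0.99 of the summed SUN1 and SUN2 RPKM in p16 with Torin2, 48.5% ± 0.25 in p21, 59.0% ± 2.76 in p16 and 42.3% ± 1.10 in mVenus (SD, n = 3 each). GET4 shares most of the 15.6% of SUN1 exonic bases that lie in other genes, and averaged at most 6.33 CPM in a group. That level may leave out reads on the shared bases.

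**Figure D3:**
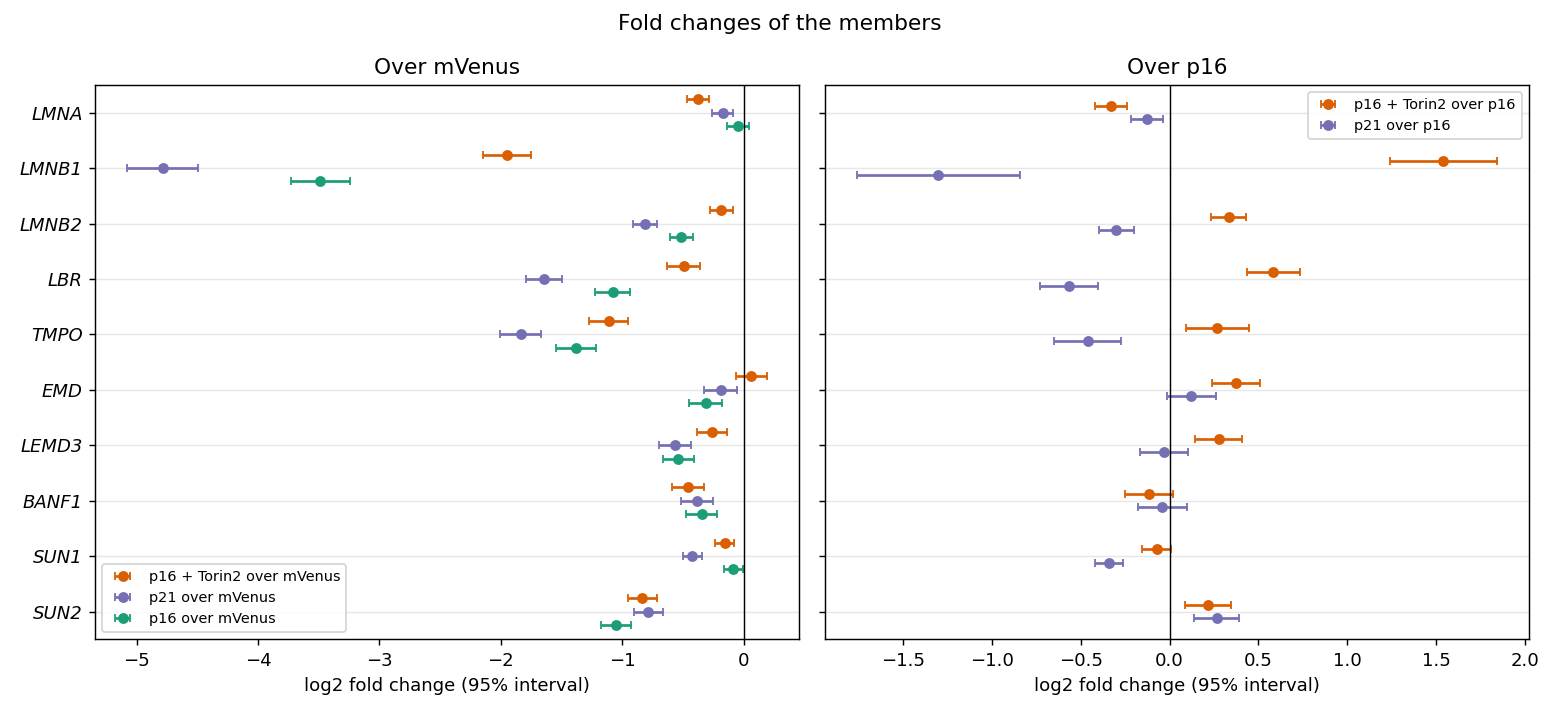
Log2 fold change of each member with its 95% interval (horizontal axes), over mVenus on the left and over p16 on the right. In each row p16 with Torin2 is on top, then p21, then p16 where it is compared. Over mVenus the points lie left of 0 apart from EMD with Torin2 at 0.06, and over p16 the largest gap between Torin2 and p21 is at LMNB1, at 1.54 and -1.30.

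In the authors' deposited tables the members' log2 fold changes for p16 and p21 over mVenus and for Torin2 over p16 differed by at most 0.02 from those above, over 30 values, and 27 had an adjusted p under 0.05. For SUN1 the authors' deposited table gives -0.066 with adjusted p = 0.115 in p16 over mVenus and -0.087 with adjusted p = 0.0351 for Torin2 over p16, the opposite calls to those above.

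By a fixed measure of likeness, the genes nearest to LMNB1 over the 12 libraries were CIT, CEP55, BLM, BUB1B and CENPA. The measure is the root-mean-square difference of log2 CPM after each gene is centred on its own mean, and it was 0.142 for CIT and 0.233 for CENPA among 14503 genes. CIT encodes citron kinase and CEP55 a midbody protein, both used in cytokinesis, BLM a DNA helicase, BUB1B a spindle checkpoint kinase and CENPA the centromeric histone. CIT averaged 8.88 CPM in p16 with Torin2, 1.42 in p21, 3.02 in p16 and 36.1 in mVenus, in the order of LMNB1. Among the members TMPO (rank 263) and LBR (rank 288) were the nearest to LMNB1, but at 1.14 and 1.19 they lay far from it beside CIT. The measure is not scaled for the size of change. The highest group mean was 27.3 times the lowest for LMNB1, 3.58 times for TMPO and 3.13 times for LBR. Those nearest to LMNA were CDK16, CHMP1A, PDLIM4, CANT1 and INPPL1, at 0.034 to 0.0452, and the nearest member was BANF1 at rank 714.

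Genes of dividing cells changed in the same comparisons. Of 20 such genes, 19 were tested and all 19 fell in p21 over mVenus and in p16 over mVenus, with medians of -4.53 and -3.86. Of all tested genes 28.3% and 32.8% were lower. With Torin2, 17 of the 19 were higher than in p16 and PLK1, the gene of a mitotic kinase, was lower. Of all tested genes 30.3% were higher and 29% lower in that comparison. MKI67, the gene of the proliferation marker Ki-67, averaged 51.6 ± 0.65 CPM in p16 with Torin2, 3.35 ± 0.42 in p21, 10.1 ± 0.43 in p16 and 331 ± 15.6 in mVenus (SD, n = 3 each), the same order of groups as LMNB1, LMNB2, LBR and TMPO. The part of the share of dividing cells in the lamina levels was not tested.

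Other genes of the nuclear envelope were read from lists chosen along with the members. Of 24 LINC and envelope partners 20 were tested, of which 8 fell and 6 rose in p21 over mVenus, and 12 fell and 3 rose in p16 over mVenus. In p21 that was 40.0% lower and 30.0% higher, beside 28.3% and 28.2% of all tested genes, and in p16 60.0% lower and 15.0% higher, beside 32.8% and 30.9%. ANKLE2, a LEM-domain protein that acts on BANF1 after mitosis, fell in both (-1.0 ± 0.04 in p21 and -1.17 ± 0.04 in p16), as did NEMP1, an inner-membrane protein (-1.56 ± 0.08 and -1.11 ± 0.08). SYNE3, the gene of nesprin-3, which links SUN proteins to intermediate filaments, rose in both, to 9.61 CPM in p21 and 15.6 CPM in p16, against 6.27 CPM in mVenus. With Torin2 it fell to 3.93 CPM, against 15.6 CPM in p16 (-1.99 ± 0.11, adjusted p = 4.02e-12). In that comparison 9 of the 20 rose (45.0%, beside 30.3% of all tested genes) and 7 fell (35.0%, beside 29%). In p21 over p16 12 rose (60.0%) and 4 fell (20.0%), beside 27.2% of all tested genes in each direction. SYNE1, the gene of nesprin-1, was among those that rose (0.93 ± 0.07).

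Genes that process lamins gave small differences. Of 6 tested, 4 fell in p21 and 4 in p16 relative to mVenus, with medians of -0.22 and -0.26. That was 66.7% in each, beside 28.3% of all tested genes lower in p21 and 32.8% in p16. Those that fell in both included RCE1, the protease that trims farnesylated proteins (-0.41 ± 0.09 in p21 and -0.37 ± 0.09 in p16). With Torin2 over p16, ICMT, the methyltransferase that completes the farnesylated end (-0.47 ± 0.04), and ZMPSTE24, the protease that cuts prelamin A to lamin A (-0.35 ± 0.06), fell. FNTA, a farnesyltransferase subunit, rose slightly (0.11 ± 0.04). The list was thus 33.3% lower and 16.7% higher with Torin2, beside 29% and 30.3% of all tested genes, so its falls lay near that share.

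Most nuclear pore genes fell in both arrests. Of 32 tested, 23 fell and SEC13 rose in p21 over mVenus, and 23 fell and 2 rose in p16, with medians of -0.33 and -0.22. The share that fell was 71.9% in each, beside 28.3% of all tested genes lower in p21 and 32.8% in p16. NUP210, a membrane-anchored pore protein, was at -1.02 ± 0.06 in p21 and -0.96 ± 0.06 in p16. With Torin2 over p16, 16 rose and 2 fell, beside 30.3% of all tested genes higher and 29% lower. The rises were led by SEH1L (0.61 ± 0.06) and NUP155 (0.60 ± 0.06), both scaffold subunits. SEC13, a coat protein shared with the secretory pathway, fell (-0.68 ± 0.05). POM121 and POM121C are near-identical copies, so their counts are uncertain.

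Of 24 genes of envelope breakdown and resealing 23 were tested, and no single direction held. In p21 over mVenus 11 fell and 5 rose, in p16 over mVenus 7 fell and 8 rose, and with Torin2 over p16 8 fell and 6 rose. The shares were 47.8% lower and 21.7% higher in p21, beside 28.3% and 28.2% of all tested genes, and 30.4% lower and 34.8% higher in p16, beside 32.8% and 30.9%. With Torin2 they were 34.8% lower and 26.1% higher, beside 29% and 30.3%, so in p16 and with Torin2 this list lay near the share over all genes. LPIN1, the gene of a phosphatidate phosphatase, averaged 166 CPM in p16 with Torin2, 413 in p21, 361 in p16 and 161 in mVenus. VRK1, the kinase that releases BANF1 from DNA, fell 2.46-fold in p21 relative to mVenus (-1.30 ± 0.10), and RCC1, which loads RAN on chromatin, was higher with Torin2 than in p16 (0.97 ± 0.04).

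Of 17 genes of peripheral heterochromatin 16 were tested, of which 11 fell and ATRX, a chromatin remodeller, rose in p21 over mVenus (median -0.31, beside 28.3% of all tested genes lower). In p16 over mVenus 9 fell and CBX3, the gene of HP1-gamma, rose (median -0.24, beside 32.8% lower). With Torin2 over p16, 10 rose and the histone deacetylase genes HDAC1 and HDAC3 fell, beside 30.3% of all tested genes higher and 29% lower. UHRF1, which reads methylated histone and DNA, was at 15.0 CPM in p16 with Torin2, 5.33 in p21, 7.66 in p16 and 44.7 in mVenus. CBX1, the gene of HP1-beta, was at 49.5, 59.7, 45.6 and 101 CPM in the same groups and order.

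LBR shares its sterol reductase step with TM7SF2, so the late cholesterol pathway was read beside it. All 10 listed genes of that pathway fell in p21 over mVenus (median -0.86) and all 10 fell with Torin2 over p16 (median -1.14). Of all tested genes 28.3% and 29% were lower in those comparisons. Among the 10, CYP51A1 shares 83.2% of its exonic bases with other genes, so its counts are uncertain. In p16 over mVenus 6 fell and 3 rose, beside 32.8% of all tested genes lower and 30.9% higher, so the rises lay near that share. Without mVenus replicate 2 the p16 count was 4 lower and 1 higher. TM7SF2 was at 6.29 CPM in p16 with Torin2, against 25.4 CPM in p16 (-2.01 ± 0.09, adjusted p = 9.81e-14), a comparison in which LBR was higher with Torin2. DHCR7, the final reductase, was at 18.6 CPM in p16 with Torin2, 55.9 in p21, 96.4 in p16 and 166 in mVenus.

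**Figure D4:**
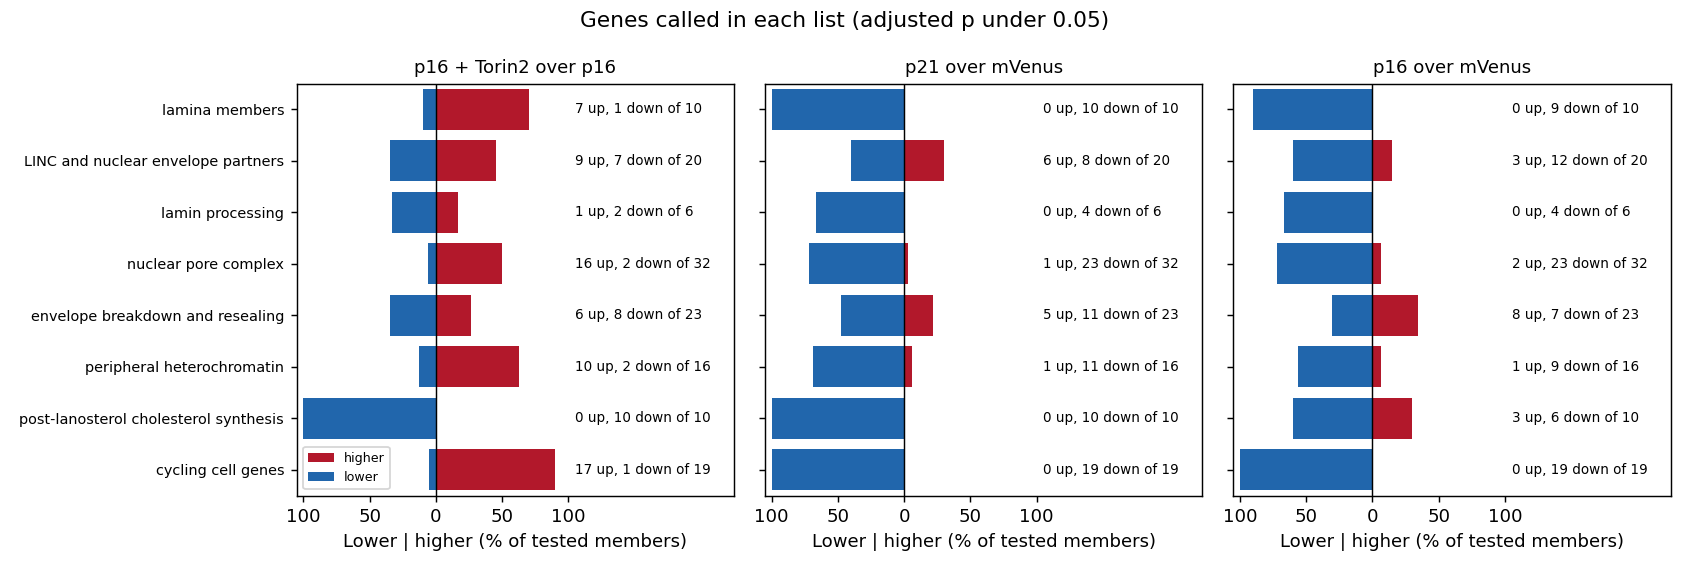
Share (%) of the tested genes of each list called higher (red, right of 0) or lower (blue, left of 0) in p16 with Torin2 over p16, p21 over mVenus and p16 over mVenus, from left to right, at an adjusted p under 0.05. The counts are printed beside the bars. The lamina members, the nuclear pore, the peripheral heterochromatin and the cycling cell genes lean to lower in both arrests and to higher with Torin2. The cholesterol genes lean to lower in p21 and with Torin2.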

How the data were processed

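Poly(A) RNA of 12 MCF10-A libraries was sequenced with a stranded library kit, as the labels' protocols state. The authors deposited raw counts per gene name, made with featureCounts 1.6.3 on GENCODE 29 without a strand, multimapping or read pair option, per the file headers. HISAT2, FastQC 0.11.3, GRCh38.p7 and DESeq2 are named in the submitters' processing notes. The authors also deposited log2 fold changes and adjusted p-values per comparison. Reads of a member and of a gene on its opposite strand therefore cannot be told apart where exons overlap. Reads on bases shared by 2 genes may have been left out of both counts. MIR7108, which overlaps LMNB2 exons, had 0 counts in all 12 libraries.

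Genes passing filterByExpr (14504) entered 1 edgeR 4.0.16 quasi-likelihood fit of all 4 groups with TMM scaling (R 4.3.3, 8 residual degrees of freedom), with Benjamini-Hochberg adjustment over all of them at 0.05. The scripts were tested on simulated data. CPM use the TMM-scaled total of tested genes, and RPKM divide them by exonic length. Levels between genes are compared as RPKM only. The 12 libraries held 13168749 to 18321114 counts, and at low counts this depth limits precision. Replicates correlated at 0.992 to 0.994 (log2 CPM, across genes) and no pair differed by as little as sampling noise.

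The 10 members were named by symbol. Of the other lists, up to 2 of the largest rises and 2 of the largest falls per comparison were named, at 5 CPM or more in the higher group. For LMNA and LMNB1 the 5 genes of most similar pattern were named, on log2 CPM with a prior count of 2. Members and lists were chosen with earlier results of these data known. Alternatives were DESeq2 1.42.0 size factors, upper quartile scaling, total counts, no low-count filter, the DESeq2 Wald test, a replicate block, the 6 libraries compared alone, and each library left out.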

Additional observations from a re-analysis of the deposited data

How the results depend on the processing

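The number of members called kept within 1.5 times under all alternatives: 8 to 10 in p16 over mVenus, 9 to 10 in p21 over mVenus, 8 to 9 in p16 with Torin2 over p16 and 6 to 8 in p21 over p16. No called member changed direction. Differences that were not called changed sign in 4 cases. LEMD3 in p21 over p16 was 0.0075 on total counts and ran from -0.0805 to 0.0282 with 1 library left out. BANF1 in p21 over p16 ran from -0.0834 to 0.0219 with 1 library left out. EMD in p16 with Torin2 over mVenus was -0.0044 on total counts, and LMNA in p16 over mVenus was 0.0037 without the low-count filter. The causes were not tested. Replicate numbers did not pair the libraries: deviations of same-numbered libraries correlated at -0.0822 to 0.0754 over 18 pairs. With the replicate block SUN1 in p16 over mVenus was -0.0836 (adjusted p = 0.0569), the single member call it changed. Depth limits LMNB1 most, in p21. With 3 libraries a group, small differences such as those of SUN1, EMD and LMNA turn on single libraries.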
